A study of Mus musculus with 13 samples.

Results

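The 10 regulators of mitochondrial biogenesis examined in gluteal WAT comprised the coactivators *Ppargc1a*, *Ppargc1b* and *Pprc1*, the nuclear transcription factors *Nrf1*, *Gabpa*, *Esrra* and *Esrrg*, and the mitochondrial transcription proteins *Tfam*, *Tfb2m* and *Polrmt*. Members were taken by gene symbol and not by their measured values, and all 10 were found among the 34419 genes counted. RNA was sequenced from gluteal WAT, a subcutaneous white fat depot of the hindquarters, of C57BL/6J mice aged 13 weeks. The first group of 7 mice lived at 22°C, a common room temperature for laboratory mice, and the other group of 6 mice lived at 29°C, which is close to thermoneutral for the mouse. Each mouse stayed at its temperature from birth, and in both groups the fur of the hind part of the body was removed once the pups were weaned, so there was no group with intact fur in the comparison. The mice were male and housed singly with little bedding, and no transgene or drug was used. Each library came from a separate mouse, so the errors and tests below describe the spread between mice.

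Mitochondria carry a small genome of their own, but nearly all of their proteins are encoded in the nucleus, so building a mitochondrion needs both genomes to be read together. The PGC-1 proteins do not bind DNA. They dock on nuclear factors such as NRF1, GABP and the estrogen-related receptors (ERRs) and raise transcription of nuclear genes for respiration, among them the genes for the mitochondrial transcription apparatus. In brown fat and muscle, *Ppargc1a* is known for its strong response to cold and exercise, whereas white fat usually holds little of it. The symbol *Nrf1* here is nuclear respiratory factor 1 and not the stress factor NFE2L1, which shares that short name.

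The promoters of *Ppargc1a*, *Esrra* and *Polrmt* are shown because these genes were among the members with the strongest fitted differences below and their windows hold letters known to be bound by CREB or by other members. The sequences are from RefSeq on the GRCm38.p6 build, run 5′ to 3′ on the minus strand on which all 3 genes lie, and cover the 250 bases before the annotated start. Capitals mark the match to a searched motif. The *Ppargc1a* window is chr5:51567726-51567975, and its capitals are the CRE half-site TGACGT read on the opposite strand, the letters bound by CREB, at 50 bases before the start. The *Esrra* window is chr19:6921809-6922058, with the NRF1 core GCATGCGC at 34 bases before the start. The *Polrmt* window is chr10:79746582-79746831, with the NRF1 core at 133 bases and the GABP motif CCGGAAG at 43 bases before the start, each on the opposite strand.
Ppargc1a: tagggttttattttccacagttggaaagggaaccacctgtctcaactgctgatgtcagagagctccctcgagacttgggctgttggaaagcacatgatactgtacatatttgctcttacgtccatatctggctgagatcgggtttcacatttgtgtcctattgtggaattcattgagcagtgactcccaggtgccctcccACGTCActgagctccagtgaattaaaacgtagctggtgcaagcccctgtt
Esrra: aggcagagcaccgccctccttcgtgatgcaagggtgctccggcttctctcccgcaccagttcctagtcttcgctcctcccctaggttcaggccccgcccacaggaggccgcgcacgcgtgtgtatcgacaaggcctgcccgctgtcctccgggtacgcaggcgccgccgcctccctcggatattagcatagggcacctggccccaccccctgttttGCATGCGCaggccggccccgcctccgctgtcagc
Polrmt: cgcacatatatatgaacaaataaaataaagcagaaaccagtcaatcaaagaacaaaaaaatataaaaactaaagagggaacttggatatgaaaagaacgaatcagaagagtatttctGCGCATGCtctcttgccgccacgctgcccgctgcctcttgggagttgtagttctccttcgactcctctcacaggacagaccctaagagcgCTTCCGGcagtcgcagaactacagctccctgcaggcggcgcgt
Promoters were matched for 9 of the 10 members, with 13 start sites in all. Searched on both strands over 32851 promoters of the same length, the NRF1 core was in 2.26%, the GABP motif in 6.91%, the CRE half-site in 6.47% and the ERR motif AAGGTCA in 4.08%. The *Tfam* and *Gabpa* windows held the GABP motif at 47 and 93 bases before the start. The ERR motif was in none of the members' windows that were searched. No searched motif was in any window of *Esrrg*, the member with the largest fitted change, or in those of *Pprc1*, *Tfb2m* and *Nrf1*. The motif letters were chosen with these windows in view, so the matches are descriptions of letters and not of binding.

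The libraries were of similar depth, with total counts between 22356637 and 25245785. Totals formed 2 clusters, with 22°C replicates 1 to 5 in the lower one and 22°C replicates 6 and 7 in the higher one beside all 6 libraries at 29°C. Markers of mature adipocytes were abundant in every library, with a summed level of 24489 to 36407 CPM (counts scaled to library size) at 22°C and 31221 to 37681 CPM at 29°C. *Ucp1*, which defines thermogenic fat, had at most 7 counts in a library and was at 0 in all 6 libraries at 29°C. Skeletal muscle RNA was present in very unequal amounts. The 20 muscle markers summed to 991 to 98933 CPM at 22°C and to 182 to 7964 CPM at 29°C, and the mean of their log2 CPM, called the muscle score here, was 4.97 to 11.4 at 22°C and 0.55 to 8.02 at 29°C. Because muscle fibers also use *Ppargc1a*, *Esrra* and *Esrrg*, the muscle score is given beside the results it moves with. In bulk tissue a change in the number of cells of a type and a change in RNA per cell cannot be told apart.

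All 10 regulators had a higher fitted level at 22°C than at 29°C, but none passed the test. Levels are CPM after TMM scaling, and the test was edgeR's quasi-likelihood test over 17779 genes with a threshold of P-adj < 0.1. At that threshold 0 of the 10 members were called, against 1.94% of all genes tested. At an unadjusted p below 0.05 there were 4 members, *Ppargc1a*, *Esrra*, *Esrrg* and *Polrmt*, all with the higher mean at 22°C, where 18.5% of all genes passed in either direction and 10.3% in that direction. A fitted change above 0 was found for 51.6% of all genes. For no member did the 2 groups of libraries separate without overlap, which was so for 1.24% of genes. The median log2 fold change over the 10 members was 0.16, whereas it was 0.01 over all genes tested. DESeq2, run on the same counts as an alternative, called 3 members, *Ppargc1a*, *Esrra* and *Esrrg*, all higher at 22°C. In that direction it called 2.66% of 34358 genes, a set that includes low-count genes left out of the edgeR test. This share and those of edgeR thus have unlike bases.

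**Figure D1:**
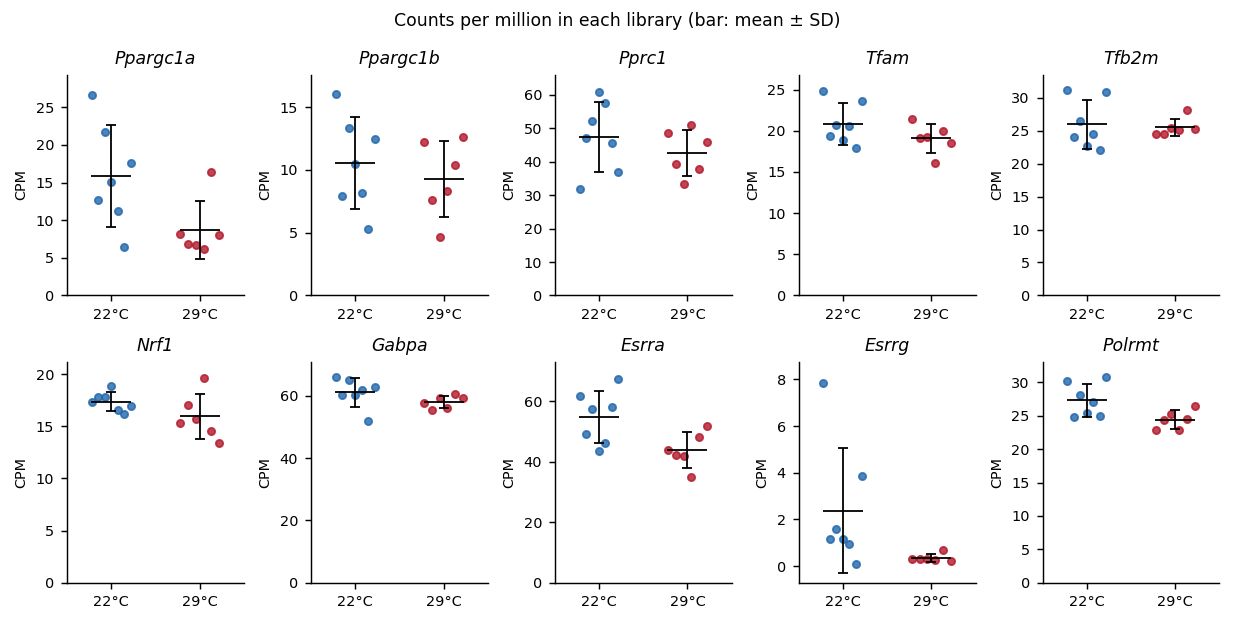
Level of each of the 10 regulators in CPM (vertical axes) in every library, with mice housed at 22°C in blue and at 29°C in red. Black bars are the mean ± SD of 7 and 6 mice. The groups overlap for every gene, and for *Esrrg* 6 of the 7 libraries at 22°C lie above the highest at 29°C while the other lies below all of them.

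Among the coactivators, *Ppargc1a* showed the widest gap between groups. Its lowest, median and highest levels were 6.43, 15.1 and 26.6 CPM at 22°C, and 6.13, 7.46 and 16.4 CPM at 29°C. Of the 7 libraries at 22°C, 6 were above the median at 29°C, and 3 of them (replicates 1, 3 and 7) were above every library at 29°C, whereas 22°C replicate 6 lay among the 29°C libraries and 29°C replicate 5 lay among those at 22°C. The means were 15.9 ± 6.76 CPM (SD, n = 7) and 8.72 ± 3.86 CPM (SD, n = 6). The log2 fold change was 0.87 (SE 0.31, 95% interval 0.19 to 1.54), with an edgeR P-adj of 0.187. With DESeq2 the P-adj was 0.0663, and over all alternatives run it was between 0.0663 and 0.719. Leaving out 22°C replicate 6 gave a log2 fold change of 1.002 and an edgeR P-adj of 0.0949. That fit called 652 genes in all, against 345 with all libraries. Leaving out 29°C replicate 5 gave a larger log2 fold change, 1.15, with an edgeR P-adj of 0.134. With the muscle score as a covariate the log2 fold change was 0.57 (edgeR P-adj 0.522), without the 2 libraries of highest muscle score, 22°C replicates 1 and 7, it was 0.62 (edgeR P-adj 0.386), and among the 8 libraries with higher totals, 2 at 22°C and 6 at 29°C, it was 0.46 (edgeR P-adj 0.719).

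*Ppargc1b* encodes PGC-1β, a close relative that also coactivates ERRs and supports respiration. It ranged from 5.32 to 16.0 CPM at 22°C with a median of 10.4, and from 4.64 to 12.6 CPM at 29°C with a median of 9.36. Both groups spanned nearly the same range, and 2 libraries at 22°C were above the highest at 29°C. The log2 fold change was 0.18 (SE 0.27, 95% interval -0.39 to 0.75, edgeR P-adj 0.760), and it was -0.04 without 22°C replicates 1 and 7, the libraries with the highest muscle scores. *Pprc1*, the PGC-1-related coactivator known from growing cells, ranged from 31.7 to 60.8 CPM (median 47.0) at 22°C and from 33.4 to 51.0 CPM (median 42.4) at 29°C. Its lowest level of all was in 22°C replicate 1, the library in which *Ppargc1a* and *Ppargc1b* were highest. The log2 fold change of *Pprc1* was 0.15 (SE 0.15, 95% interval -0.17 to 0.48, edgeR P-adj 0.629).

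Divided by exon length, the coactivators differed in how much of the family they made up. Exon lengths came from an annotation of another build than the one named for the counts, so values per kilobase are approximate. The strand setting of the counts is also unknown. Values of *Pprc1*, *Esrra* and *Gabpa*, here and below, may thus hold reads of genes they overlap on the opposite strand. Of the summed RPKM (reads scaled to depth and exon length) of the 3 coactivators, *Pprc1* made up 60.4% ± 13.0 at 22°C and 65.4% ± 6.76 at 29°C (SD, n = 7 and 6). The share of *Ppargc1a* was 18.8% ± 6.97 at 22°C and 12.7% ± 5.03 at 29°C, and that of *Ppargc1b* was 20.7% ± 6.15 and 21.8% ± 4.33. *Pprc1* was the largest of the 3 in the mean of both groups, and across single libraries its share ran from 38.5% to 75.9%. The order of *Ppargc1a* and *Ppargc1b*, with mean RPKM of 2.41 and 2.64 at 22°C and 1.32 and 2.33 at 29°C, was within the spread between mice at 22°C.

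The estrogen-related receptors bind the same DNA letters without a known hormone and are the main partners of PGC-1α on genes of respiration. *Esrra* encodes ERRα, which was the more abundant of the pair by far. Its levels were 43.8, 57.5 and 67.4 CPM (lowest, median and highest) at 22°C and 35.1, 43.1 and 51.9 CPM at 29°C. All 7 libraries at 22°C were above the median at 29°C and 4 were above the highest, with 29°C replicate 6 as the highest of its group. The means were 54.9 ± 8.68 CPM (SD, n = 7) and 43.9 ± 5.80 CPM (SD, n = 6), and the log2 fold change was 0.32 (SE 0.11, 95% interval 0.08 to 0.56) with an edgeR P-adj of 0.177. The DESeq2 P-adj was 0.0995, and over all alternatives run it was between 0.0995 and 0.409. The log2 fold change of *Esrra* was 0.30 with the muscle score as a covariate, 0.21 without 22°C replicates 1 and 7, the libraries of highest muscle score, and 0.51 among the libraries with higher totals (edgeR P-adj 0.409, 0.379 and 0.267).

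*Esrrg* encodes ERRγ, which is prominent in heart, oxidative muscle and brown fat. It was the least abundant member and had the largest fitted change. The libraries at 22°C held 149, 27, 35, 28, 22, 2 and 85 counts in replicates 1 to 7, and those at 29°C held 8, 8, 8, 7, 18 and 5 counts in replicates 1 to 6. In all, 6 libraries at 22°C were above every library at 29°C, and 22°C replicate 6, with a count no higher than the 3 that a count of 0 allows, was below them all. In CPM the lowest, median and highest were 0.077, 1.17 and 7.85 at 22°C and 0.211, 0.308 and 0.704 at 29°C. The log2 fold change was 2.73 (SE 0.74, 95% interval 1.13 to 4.32) with an edgeR P-adj of 0.113. Over all alternatives run the P-adj was between 0.00369, from DESeq2, and 0.403, from edgeR with the muscle score as a covariate. Leaving out 22°C replicate 6 gave a log2 fold change of 2.94 and an edgeR P-adj of 0.0551, and leaving out 22°C replicate 1 gave 2.03. With the muscle score as a covariate the value was 1.45, and without the 2 libraries of highest muscle score it was 1.46 (edgeR P-adj 0.216). Per kilobase, *Esrrg* made up 2.71% ± 2.68 of the *Esrra* and *Esrrg* total at 22°C and 0.559% ± 0.243 at 29°C (SD, n = 7 and 6), and at most 8.23% in any library. The related *Esrrb* was too low to be tested.

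*Nrf1* and *Gabpa*, the DNA-binding factors that serve many promoters of respiration and translation genes, stood close to level. *Nrf1* ranged from 16.1 to 18.9 CPM with a median of 17.3 at 22°C, and from 13.4 to 19.7 CPM with a median of 15.5 at 29°C. The highest *Nrf1* level of all was in 29°C replicate 4, although all 7 libraries at 22°C were above the median at 29°C. The log2 fold change of *Nrf1* was 0.12 (SE 0.09, 95% interval -0.06 to 0.30, edgeR P-adj 0.476). *Gabpa*, the ETS-domain subunit of GABP, ranged from 52.0 to 66.1 CPM (median 61.8) at 22°C and from 55.5 to 60.5 CPM (median 58.4) at 29°C. For *Gabpa*, 4 libraries at 22°C were above the highest at 29°C, and 22°C replicate 6 was below the lowest. Its log2 fold change was 0.07 (SE 0.06, 95% interval -0.05 to 0.19, edgeR P-adj 0.505).

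The 3 proteins that transcribe mitochondrial DNA are TFAM, which bends and packs that DNA, TFB2M, which opens its promoters, and POLRMT, the RNA polymerase itself. *Polrmt* levels were 24.8, 27.0 and 30.8 CPM (lowest, median and highest) at 22°C and 22.8, 24.5 and 26.4 CPM at 29°C. All 7 libraries at 22°C were above the median at 29°C, and 4 of them (replicates 1, 3, 5 and 7) were above the highest. The means of *Polrmt* were 27.3 ± 2.46 CPM (SD, n = 7) and 24.4 ± 1.40 CPM (SD, n = 6), with a log2 fold change of 0.16 (SE 0.07, 95% interval 0.02 to 0.31, edgeR P-adj 0.228). The value of *Polrmt* was 0.15 with the muscle score as a covariate and 0.09 without the 2 libraries of highest muscle score (edgeR P-adj 0.512 and 0.534). *Tfam* ran from 17.9 to 24.9 CPM (median 20.6) at 22°C and from 16.1 to 21.5 CPM (median 19.2) at 29°C, so that the groups shared most of their range. The log2 fold change of *Tfam* was 0.13 (SE 0.09, 95% interval -0.07 to 0.32, edgeR P-adj 0.474), and it was 0.044 with the muscle score as a covariate and 0.031 without the 2 libraries of highest muscle score. *Tfb2m* ran from 22.1 to 31.1 CPM (median 24.4) at 22°C and from 24.4 to 28.1 CPM (median 25.2) at 29°C. Its 2 highest levels were in 22°C replicates 1 and 7, and 4 libraries at 22°C were below the lowest at 29°C. *Tfb2m* had the smallest fitted change of the 10, 0.03 on the log2 scale (SE 0.09, 95% interval -0.16 to 0.22, edgeR P-adj 0.905), and its sign was negative once the muscle score was a covariate (-0.07).

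**Figure D2:**
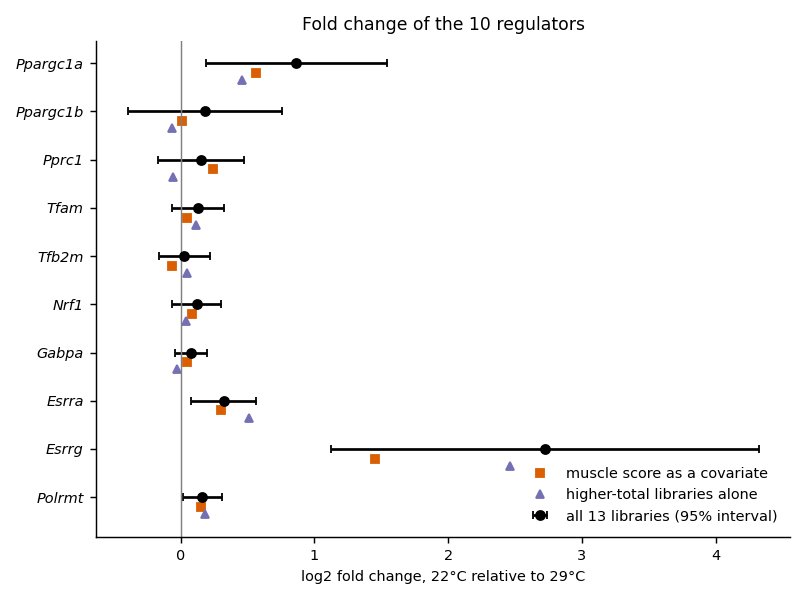
Log2 fold change of each regulator at 22°C relative to 29°C (horizontal axis). Black points and bars are the edgeR estimate and 95% interval from all 13 libraries, orange squares the estimate with the muscle score as a covariate, and purple triangles the estimate from the 8 libraries with higher totals. With the covariate *Esrrg* moves from 2.73 to 1.45, *Ppargc1a* from 0.87 to 0.57, *Tfam* from 0.13 to 0.04 and *Esrra* from 0.32 to 0.30.

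Set in order of mean RPKM at 22°C, the members ran from *Esrra* (12.5 ± 1.98) through *Gabpa* (10.8 ± 0.816), *Tfb2m* (9.25 ± 1.32), *Pprc1* (7.54 ± 1.68), *Polrmt* (5.83 ± 0.53), *Tfam* (4.70 ± 0.571), *Ppargc1b* (2.64 ± 0.923), *Ppargc1a* (2.41 ± 1.03) and *Nrf1* (1.69 ± 0.0891) to *Esrrg* (0.382 ± 0.432), all as mean ± SD of 7 mice. At 29°C the means were 10.02 for *Esrra*, 10.2 for *Gabpa*, 9.08 for *Tfb2m*, 6.78 for *Pprc1*, 5.21 for *Polrmt*, 4.30 for *Tfam*, 2.33 for *Ppargc1b*, 1.55 for *Nrf1*, 1.32 for *Ppargc1a* and 0.056 for *Esrrg*. *Esrra* and *Gabpa* stood in the opposite order at 29°C, and so did *Ppargc1a* and *Nrf1*, in each case by less than the larger SD of the pair. Among neighbors at 22°C, *Esrra* and *Gabpa*, *Ppargc1b* and *Ppargc1a*, and *Ppargc1a* and *Nrf1* also lay closer than the larger SD of the pair. The spread between mice varied widely among members. The coefficient of variation was 113% for *Esrrg*, 42.5% for *Ppargc1a* and 34.96% for *Ppargc1b* at 22°C, against 5.28% for *Nrf1*, 7.59% for *Gabpa* and 9.01% for *Polrmt*.

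The mice also differed in how many regulators stood high together. In 22°C replicate 3 all 10 members were above their median over the 13 libraries, and in 22°C replicate 1 it was 9 of 10, with 6 of them at their highest level of all. In 22°C replicate 7 it was 8 of 10. In 22°C replicate 6, by contrast, 1 of 10 was above the median and 3 were at their lowest level of all. Among mice at 29°C the number was between 1 and 4. The muscle score was 11.3 in 22°C replicate 1 and 11.4 in replicate 7, the highest of all, and 5.58 in replicate 3 and 5.66 in replicate 6. The part of muscle RNA in how many members stood high was not tested.

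**Figure D3:**
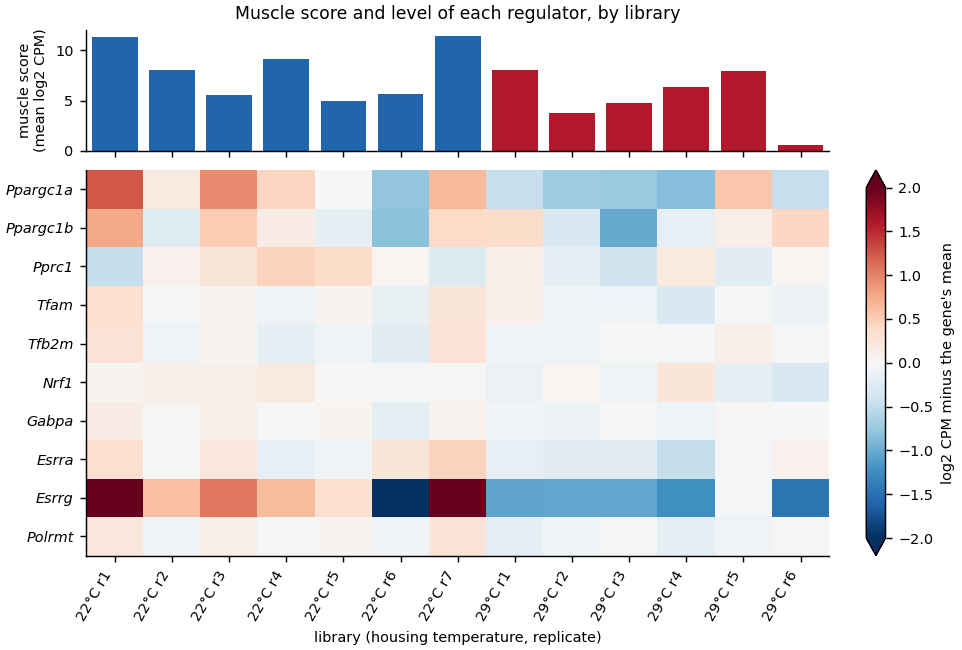
Each column is a library. The bars give the muscle score (mean log2 CPM of 20 muscle markers), with 22°C in blue and 29°C in red, and the colored cells give each regulator's log2 CPM minus its mean over the 13 libraries, with colors ending at 2 in either direction. The columns of 22°C replicates 1 and 3 are mostly red, that of 22°C replicate 6 mostly blue, and *Pprc1* is blue in 22°C replicate 1, where *Ppargc1a* is darkest red.

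Over the 13 mice, 7 of the other 9 members followed *Ppargc1a* in log2 CPM by Pearson's r, or 6 with a prior count of 0.5, where *Esrra* had an adjusted permutation p of 0.0515. The share of all genes that would pass the same test was not computed, so this count has no background beside it. The relations share the libraries and their scaling, and 19 relations were tested together with permutation tests across both temperatures, adjusted by Benjamini-Hochberg. Group means were not removed, so a difference between the temperatures that both measures share enters r and its test. Values of r within each temperature are given for that reason and were not tested. The closest was *Esrrg* (Pearson r 0.91, adjusted permutation p 0.000475, Spearman rho 0.88, adjusted permutation p 0.00152), with r of 0.93 within 22°C, 0.87 within 29°C and 0.88 without 22°C replicates 1 and 3, the mice farthest from the median of *Ppargc1a*. *Gabpa* was next (r 0.87, adjusted permutation p 0.000475, rho 0.90, adjusted permutation p 0.00152), with r of 0.93 at 22°C, 0.68 at 29°C and 0.76 without those mice. For *Gabpa* this held over a narrow range of levels, and 22°C replicate 6 was the lowest mouse of its group for both genes. Once the muscle score was regressed out of both genes, r was 0.84 for *Esrrg* and 0.86 for *Gabpa*, and among the 8 libraries with higher totals it was 0.85 and 0.75.

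The other relations with *Ppargc1a* were looser. *Tfam* had r of 0.73 (adjusted permutation p 0.0200) and rho of 0.79 (adjusted permutation p 0.0145), and *Ppargc1b* had r of 0.71 (adjusted permutation p 0.0204) and rho of 0.71 (adjusted permutation p 0.0365). *Ppargc1b* followed *Ppargc1a* very closely among mice at 22°C (r 0.99) but less so at 29°C (r 0.42), and the difference was not tested. *Polrmt* (r 0.72), *Tfb2m* (r 0.65) and *Esrra* (r 0.62) passed by Pearson's r, with adjusted permutation p of 0.0200, 0.0449 and 0.0490, but not by Spearman's rho, with 0.0875, 0.141 and 0.0875. Without 22°C replicates 1 and 3, r was 0.62 for *Tfam* and 0.54 for *Ppargc1b*, and 0.55, 0.48 and 0.46 for *Polrmt*, *Tfb2m* and *Esrra*. Leaving out the extremes of *Ppargc1a* narrows its range, which by itself can lower r, so these values cannot show whether the relations rested on those mice. With the muscle score regressed out, r was 0.57 for *Tfam*, 0.65 for *Ppargc1b*, 0.68 for *Polrmt*, 0.49 for *Tfb2m* and 0.55 for *Esrra*. Within 22°C and within 29°C, r was 0.78 and 0.45 for *Tfam*, 0.72 and 0.15 for *Polrmt*, 0.78 and 0.88 for *Tfb2m*, and 0.30 and 0.60 for *Esrra*. The remaining members, *Pprc1* (r -0.13, adjusted permutation p 0.667, rho -0.09, adjusted permutation p 0.766) and *Nrf1* (r 0.17, adjusted permutation p 0.602, rho 0.14, adjusted permutation p 0.732), did not pass.

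**Figure D4:**
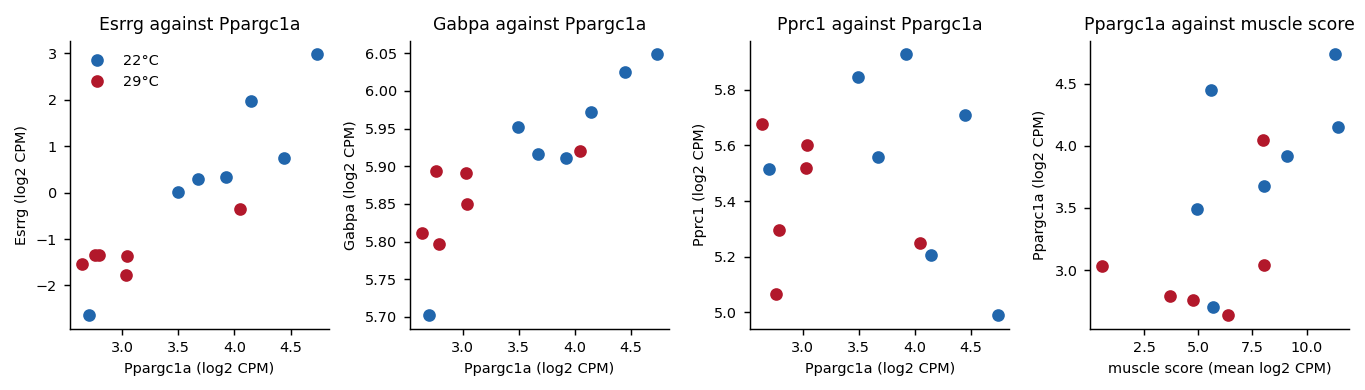
Each point is a mouse, with 22°C in blue and 29°C in red. The first 3 panels set the log2 CPM of *Esrrg*, *Gabpa* and *Pprc1* against that of *Ppargc1a*, and the last sets *Ppargc1a* against the muscle score. *Esrrg* and *Gabpa* follow *Ppargc1a* with r of 0.91 and 0.87, *Pprc1* has r of -0.13, and *Ppargc1a* has r of 0.63 with the muscle score.

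Against the muscle score itself, *Esrrg* (r 0.73, adjusted permutation p 0.0200) and *Ppargc1a* (r 0.63, adjusted permutation p 0.0449) passed by Pearson's r, and neither passed by Spearman's rho (0.61 and 0.57, adjusted permutation p 0.0875 and 0.104). Within groups r was 0.74 at 22°C and 0.64 at 29°C for *Esrrg*, and 0.58 and 0.39 for *Ppargc1a*. Without the mice farthest from the median muscle score, 29°C replicate 6 and 22°C replicate 7, r was 0.66 and 0.64. None of the other 8 members passed, and their r was between -0.22 for *Pprc1* and 0.60 for *Tfam*. How much of either gene's RNA came from muscle was not tested.

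The genes whose pattern was most like that of each member were also sought. By the correlation of deviations from the group means over 13 libraries, among 17778 other genes tested, the genes most like *Ppargc1a* were *Dyrk2* (r 0.92), *Bcl7a* (r 0.89) and *Amer1* (r 0.87). Those most like *Esrrg* were *1700094J05Rik* (r 0.96), *Ankmy1* (r 0.94) and *Klhl8* (r 0.94). *Polrmt* was followed by *Eif4g1* (r 0.97), *Ogdh* (r 0.96) and *Idh3a* (r 0.95), and *Esrra* by *Oxnad1* (r 0.93), *Zfp383* (r 0.92) and *Ndufa9* (r 0.92). For the remaining members the closest gene was *Pfkfb3* for *Ppargc1b* (r 0.93), *Pak4* for *Pprc1* (r 0.95), *Trnt1* for *Tfam* (r 0.93), *Kif16b* for *Tfb2m* (r 0.95), *Cog3* for *Nrf1* (r 0.94) and *Optn* for *Gabpa* (r 0.92). These are the highest of many values and carry no test.

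The rest of the pathway was read from fixed lists in the same fit. Of 26 partners and upstream regulators, 25 were tested and 0 were called, with 16 fitted higher and 9 lower at 22°C and a median log2 fold change of 0.03. The most abundant were *Pparg*, the master factor of fat cells, with a log2 fold change of -0.20 (SE 0.10, edgeR P-adj 0.310), *Ncor1*, a corepressor, with 0.02 (SE 0.09, edgeR P-adj 0.948), and *Rxra*, the partner of PPARs on DNA, with -0.04 (SE 0.07, edgeR P-adj 0.791). Named after their values were seen, *Flcn*, a subunit of the folliculin complex that acts on AMPK and TFE3, had 0.35 (SE 0.10, edgeR P-adj 0.131) and its partner *Fnip1* 0.35 (SE 0.15, edgeR P-adj 0.235). *Ncoa1*, another coactivator of nuclear receptors, was lower in every mouse at 22°C (63.7 to 74.9 CPM) than in any at 29°C (76.7 to 79.0 CPM), with a log2 fold change of -0.16 (SE 0.05, edgeR P-adj 0.131). Groups separated without overlap, in either direction, for 1.24% of all genes tested. *Perm1*, a muscle regulator that works with ERRs, and *Mef2c* had the largest fitted changes, 2.71 (SE 1.01, edgeR P-adj 0.195) and 1.91 (SE 0.63, edgeR P-adj 0.163), and 13 of the 20 muscle markers reached an unadjusted p below 0.05 in the same direction.

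Of the 17 other genes that copy and express mitochondrial DNA, 0 were called, and 12 were fitted lower and 5 higher at 22°C (median log2 fold change -0.07). The most abundant were the protease *Lonp1* (0.07, SE 0.06, edgeR P-adj 0.582), the DNA polymerase *Polg* (-0.13, SE 0.06, edgeR P-adj 0.287) and the RNA-binding *Lrpprc* (0.18, SE 0.16, edgeR P-adj 0.591). *Twnk*, the replicative helicase, named after its values were seen, was higher in every mouse at 22°C (34.3 to 38.4 CPM) than in any at 29°C (30.9 to 33.7 CPM), with a log2 fold change of 0.14 (SE 0.04) and an edgeR P-adj of 0.137. Such separation, in either direction, was found for 1.24% of all genes tested. The fitted values of *Tfam*, *Tfb2m* and *Polrmt*, 0.13, 0.03 and 0.16, were thus above this list's median, and no test compared them with it.

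Textbook nuclear targets of these regulators were fitted higher at 22°C for 15 of 16 genes, with 0 called and 6 at an unadjusted p below 0.05, and a median log2 fold change of 0.23. Over all genes tested, 51.6% were fitted higher, 10.3% were higher with that p, and the median was 0.01. With the muscle score as a covariate 15 were fitted higher and 2 reached that p (median 0.22), and without the 2 libraries of highest muscle score 13 were fitted higher and 1 reached it (median 0.11). Among the most abundant were the ATP synthase subunit *Atp5b* (0.21, SE 0.14, edgeR P-adj 0.468) and citrate synthase *Cs* (0.26, SE 0.17, edgeR P-adj 0.435). *Alas1*, the first enzyme of heme synthesis, was the exception with -0.11 (SE 0.24, edgeR P-adj 0.849).

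At the end of the pathway lie the 13 mRNAs of the mitochondrial genome itself. All 13 were fitted higher at 22°C (median log2 fold change 0.36), and 1 was called. With the muscle score as a covariate the median was 0.27, and without the 2 libraries of highest muscle score 11 were fitted higher and 2 lower, with a median of 0.094. The called gene was *mt-Nd6*, the complex I subunit encoded on the light strand, at 2939 ± 1033 CPM at 22°C (SD, n = 7) and 1580 ± 272 CPM at 29°C (SD, n = 6), a log2 fold change of 0.89 (SE 0.22, edgeR P-adj 0.0896). The strand setting of the counts is unknown, so its reads cannot be told apart from RNA of the opposite strand. The call was fragile. No mitochondrial mRNA was called by edgeR with no filter on low counts, with the replicate block, with the muscle score or the library totals as a covariate, among the higher-total libraries, without the 2 libraries of highest muscle score, at P-adj < 0.05, or with any single library left out other than 22°C replicate 6, nor by limma on the authors' log2 values, whereas DESeq2 called 2. The most abundant were *mt-Co1* (0.36, SE 0.21, edgeR P-adj 0.378), *mt-Cytb* (0.36, SE 0.19, edgeR P-adj 0.331) and *mt-Nd1* (0.43, SE 0.21, edgeR P-adj 0.294). As a share of all counts, the 13 mRNAs made up 7.54% ± 1.48 at 22°C (SD, n = 7) and 6.03% ± 0.822 at 29°C (SD, n = 6), a difference of 1.52 percentage points (two-sided exact permutation test, p = 0.0396). The highest share, 10.3%, was in 22°C replicate 1, which had the highest *Ppargc1a* and a muscle score of 11.3. Without that mouse the difference was 1.05 points (exact permutation p = 0.0671). The next highest share, 8.11%, was in 22°C replicate 7, which had the highest muscle score, 11.4. The share was not tested with the muscle score as a covariate or without both mice. For *mt-Nd3*, *mt-Nd4l*, *mt-Co2*, *mt-Co3*, *mt-Atp6* and *mt-Atp8* the mean level was 4.29 to 17.3 CPM, whereas the other mRNAs were at 2312 CPM or more, so the share rests on the latter. Why the counts of the former were so low was not tested. The share and the order of abundance thus describe the deposited counts and may not reflect the levels in the tissue.

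**Figure D5:**
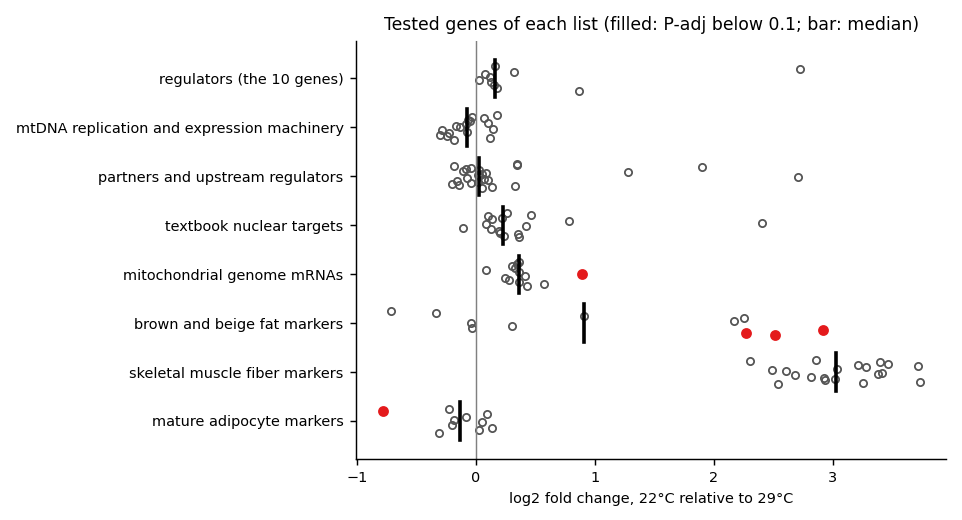
Log2 fold change at 22°C relative to 29°C (horizontal axis) of each tested gene in the regulator set and in 7 other lists. Each circle is a gene, filled red where the edgeR P-adj was below 0.1, and the black bar is the list's median. The medians are 0.16 for the regulators, -0.07 for the mitochondrial DNA machinery, 0.23 for nuclear targets, 0.36 for mitochondrial mRNAs and 3.03 for muscle markers.

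Markers of other cell types were read from the same fit. All 20 muscle markers were fitted higher at 22°C (median log2 fold change 3.03) with 0 called by edgeR and 13 by DESeq2, among them *Acta1* at 2.93 (SE 1.23, edgeR P-adj 0.227). Of 13 brown and beige fat markers, 11 were tested, with 7 fitted higher and 4 lower at 22°C, and 3 were called, all higher. No marker of this list was called with library totals as a covariate or among the higher-total libraries. The called genes were *Cidea*, a lipid droplet protein (2.51, SE 0.40, edgeR P-adj 0.0199), *Cox8b*, a cytochrome oxidase subunit of muscle and brown fat (2.27, SE 0.53, edgeR P-adj 0.0827), and *Otop1*, a proton channel (2.92, SE 0.59, edgeR P-adj 0.0596). Of the 4 fitted lower, *Tnfrsf9* had the largest value (-0.71, SE 0.30, edgeR P-adj 0.227). The list summed to 78.1 to 262 CPM at 22°C and 54.5 to 78.6 CPM at 29°C. Of 10 adipocyte markers only *Lep*, encoding leptin, was called, lower at 22°C (-0.78, SE 0.15, edgeR P-adj 0.0564). Among 7 macrophage and 5 endothelial markers 0 were called, with medians of -0.11 and -0.15, and of 6 lymphocyte markers *Cd3e*, part of the T cell receptor complex, was called higher (1.78, SE 0.42, edgeR P-adj 0.0817) at a mean of 1.04 CPM at 22°C. The part of these cells in the regulators' values was not tested, apart from the muscle score fits given above.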

How the data were processed

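RNA-seq of gluteal WAT from 13 mice was used, grouped by the housing temperature in the labels. Per the submitters' processing notes, the authors aligned reads with STAR 2.7.5a to GRCm39 and counted them with featureCounts, and the deposited counts are raw reads per gene. The authors also deposited log2 values (rlog, DESeq2), which were used in 1 alternative. The annotation and the strand setting are not given in the sources used here. Without strand, reads of *Gabpa*, *Esrra* and *Pprc1* and of the opposite-strand genes they overlap (*Atp5j*, *Trmt112* and *Ldb1*) cannot be told apart. Symbols were matched by gene identifier for 34006 of 34419 genes.

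Counts were filtered with filterByExpr, scaled by TMM and tested with edgeR 4.0.16 (R 4.3.3), with Benjamini-Hochberg adjustment over all 17779 genes and a threshold of P-adj < 0.1. Log2 CPM used a prior count of 2. The limit for a gene at 0 was taken as 3 counts (0.113 to 0.158 CPM by library), which covers counting error only. Scripts were tested on simulated counts. No pair of libraries, of 78, agreed within sampling noise (lowest chi-square per gene 16.9). Correlations used 100000 permutations. Alternatives included DESeq2 1.42.0, limma 3.58.1 on the authors' log2 values, other scaling and filters, covariates for the muscle score and library totals, and leaving out each library. The members, gene lists and tests were chosen with earlier results of these data known, and the fit without the 2 libraries of highest muscle score and the muscle-adjusted correlations were added after the data were seen. Named genes were drawn from the 10 members, the most abundant and all called genes of each list, *Ucp1*, and the genes most like each member. Genes named outside that rule are marked, as are the motifs, and *Alas1*, *Perm1*, *Mef2c* and *Tnfrsf9* were also picked by value. A gene that the rule would name is not reported here.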

Additional observations from a re-analysis of the deposited data

Results flagged for a closer look

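In 22 groups of libraries, those of the 10 regulators and of the mitochondrial mRNA share at each temperature, 4 had a sample whose gap to its nearest neighbor was large against the whole range of the group, where chance gives about 1 in 20. Of these, 3 were the same mouse, 29°C replicate 5, as the highest of its group. For *Ppargc1a* it stood at 16.4 CPM and the next mouse at 8.14 CPM, a gap of 0.714 of the range in log2 CPM. For *Esrrg* it stood at 0.704 CPM against 0.309 CPM, a gap of 0.706, and for *Tfb2m* at 28.1 CPM against 25.4 CPM, a gap of 0.709. This mouse had a muscle score of 7.98, close to the 8.02 of 29°C replicate 1, in which *Ppargc1a* and *Esrrg* were not raised, at 8.14 and 0.307 CPM. The fourth was *Gabpa* in 22°C replicate 6, the lowest of its group at 52.0 CPM with the next mouse at 60.1 CPM, a gap of 0.601. The part of tissue composition in these values was not tested.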

How the results depend on the processing

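Every fitted change of *Ppargc1a*, *Esrra*, *Esrrg*, *Polrmt*, *Tfam* and *Nrf1* was above 0 in every alternative run. *Ppargc1b* reversed with a covariate for the clusters of library totals (-0.064), among the higher-total libraries alone (-0.067) and without the 2 libraries of highest muscle score (-0.041). *Pprc1* (-0.048 and -0.057) and *Gabpa* (-0.019 and -0.026) reversed in the first 2 of these. *Tfb2m* reversed with the replicate block (-0.028), the muscle score as a covariate (-0.066) and without the 2 libraries (-0.093), and ranged from -0.023 to 0.061 with each library left out. The causes were not tested.

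Genes called numbered 345, 130 higher and 215 lower at 22°C. There were 1676 (914 and 762) with DESeq2, 42 with no filter on low counts, 46 with the muscle score, 4 with the cluster covariate, 8 among the higher-total libraries, 40 at P-adj < 0.05, and 32 (without 29°C replicate 3) to 652 (without 22°C replicate 6) with 1 library left out. Members called were 0, except 3 with DESeq2 and 0 to 2 with 1 library left out. Genes called in the other lists were 6 at first, 29 with DESeq2, 1 with no filter, 2 with the muscle score, 0 with the cluster covariate, 0 among the higher-total libraries, 3 without the 2 libraries of highest muscle score, 1 at P-adj < 0.05, and 1 to 8 with 1 library left out. The difference in mitochondrial mRNA share was 1.52 points among the higher-total libraries (exact permutation p = 0.107, where 28 splits are possible) and 1.05 to 1.82 points with 1 library left out (exact permutation p 0.0152 to 0.0896). It was no longer below 0.05 without 22°C replicates 1, 3, 5 or 7, or 29°C replicates 2, 3, 4 or 5, each in turn.

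The mice were not taken as paired by replicate number, because the labels do not tie it to a shared litter or day. A correlation of 0.1 was missed by 1 of 6 numbers, which does not show that same-numbered mice were independent. Deviations of same-numbered libraries correlated at 0.35 to 0.51 for 5 numbers and at 0.05 for replicate 5. Of the 6 numbers, 4 correlated best with their own number, a hint from the data and not from a stated design. The sample numbers in the column headers are evenly offset between same-numbered mice for those 5 numbers, but not for replicate 5. What these sample numbers stand for is not given, and a block by them was not fitted. With the replicate block 214 genes and 0 members were called, and *Ppargc1a* and *Esrrg* were at 0.80 and 1.998 (edgeR P-adj 0.269 and 0.175). Temperature and library total nearly coincide, since 5 of 7 libraries at 22°C and none at 29°C had lower totals. Depth limits *Esrrg* alone among the members, at 2 to 149 counts, whereas the others had at least 120.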
